A study of Mus musculus with 15 samples.

Results

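The genes described here are 7 genes of MHC class II antigen presentation, measured in the liver of 15 female C57BL/6 mice by RNA sequencing. They are H2-Aa, H2-Ab1, H2-Eb1, H2-DMa, H2-DMb1, Cd74 and Ciita, taken by gene symbol from the 55450 Ensembl gene IDs of the count table. The list was chosen with earlier results of these data known. All 7 were among the 15808 genes that passed the filter on low counts. The Adult group (mice A1 to A5) was 6 months of age and the Old group (O1 to O5) 22 months of age when assigned, and both received corn oil as vehicle by daily oral gavage. The PDX group (P1 to P5), also 22 months of age, received Protectin DX, a lipid mediator made from an omega-3 fatty acid, in the same oil at 30 ng per g of body weight. The labels carry no transgene or deletion, give the treatment as 9 weeks in the protocol and 8 weeks in the design text, and describe each library as the liver of 1 mouse. The comparison of Old with Adult asks what differed with age, and those with PDX ask whether treated mice of the same age as the Old mice differed from either group.

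MHC class II molecules are pairs of an alpha and a beta chain that carry peptides from endocytosed proteins to the cell surface, where CD4 T cells read them. H2-Aa and H2-Ab1 encode the chains of I-A and H2-Eb1 the beta chain of I-E. Cd74 encodes the invariant chain, which occupies the peptide groove until the molecule reaches the endosome, and H2-DMa and H2-DMb1 encode the H2-DM pair that exchanges its last fragment for a peptide. Ciita encodes the coactivator that is required for transcription of the class II genes and binds the factors assembled on their promoters, in the order X box and Y box. In liver the proteins are known mainly from dendritic cells, B cells, Kupffer cells and other macrophages, and hepatocytes carry little.

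The promoter stretches below are shown because the X box and Y box are the known shared element of class II promoters, and they are 2 members and 2 other class II chains. RefSeq windows from 250 bases before to 50 bases after the gene start (GRCm38.p6) were given for 4 of the 7 genes, H2-Aa, H2-Eb1, H2-DMa and H2-DMb1, and for 4 of 5 further class II chains. In each stretch, which runs from 150 to 21 bases before the start, the capitals mark the letters GNNAC followed by any 2 bases and ATG (a core of the X box) and CCAAT or its reverse complement ATTGG (the Y box), searched on both strands. H2-Eb1 lies at chr17:34305717-34305846 on the plus strand, H2-Aa at chr17:34287844-34287973 on the minus strand, and H2-Eb2 (chr17:34325525-34325654) and H2-Ob (chr17:34238755-34238884), which are other class II chains, on the plus strand.
H2-Eb1: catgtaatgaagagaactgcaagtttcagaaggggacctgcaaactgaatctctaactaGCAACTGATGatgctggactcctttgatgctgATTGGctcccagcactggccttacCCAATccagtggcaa
H2-Aa: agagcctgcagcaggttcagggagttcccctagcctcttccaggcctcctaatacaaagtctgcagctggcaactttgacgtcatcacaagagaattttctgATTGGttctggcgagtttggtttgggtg
H2-Eb2: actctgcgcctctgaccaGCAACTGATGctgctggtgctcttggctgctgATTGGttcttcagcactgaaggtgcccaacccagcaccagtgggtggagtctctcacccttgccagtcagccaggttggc
H2-Ob: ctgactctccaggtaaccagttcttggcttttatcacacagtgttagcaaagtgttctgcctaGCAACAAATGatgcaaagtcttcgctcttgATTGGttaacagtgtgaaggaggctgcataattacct

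The X box letters were followed by ATTGG after 22 bases in H2-Eb1 and H2-Eb2, after 23 bases in H2-DMb1 and after 20 bases in H2-Ob. In H2-Oa 87 bases lay between them, and the H2-DMb2 window held the Y box letters only. Of all 32851 RefSeq mouse windows of this length, 8.97% held the X box letters, 37.4% the Y box letters, and 38 windows, 0.116%, the X box letters followed by ATTGG with 10 to 30 bases between them. The H2-Aa window held the Y box letters only, and neither of the 2 windows of H2-DMa held the X box letters, which says only that those exact letters are not in these windows. A match of letters is a description of the sequence and was not tested for binding.

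Counted read pairs per library numbered 22424383 to 36070835 for the Adult mice, 25480180 to 29069346 for the Old mice and 26113995 to 30139181 for the PDX mice. Levels are given as CPM, the counts of a gene relative to the total of its library, scaled by the TMM factor of edgeR, which was 1.33 for O2 and 0.884 to 1.08 for the other mice. O2 and O5, both in the Old group, stood apart from the rest in the expression of these genes. O2 was the highest and O5 the lowest of all 15 mice for each of the 7 class II genes, an order that 894 of the 15808 tested genes (5.66%) had. The results below are therefore given with and without these mice. Albumin (Alb) was the most abundant hepatocyte marker, with a mean of 112705 CPM over all mice, and the 7 hepatocyte markers summed to 49151 CPM in O5 and 75713 CPM in O2, against 134835 ± 4524 CPM in the Adult mice (SD, n = 5). Most of these sums was Alb, and the median over the single markers was 0.683 times the Adult mean in O5 and 0.335 times in O2.

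The genes of the classical chains lie next to each other on chromosome 17 (GRCm38), H2-Ab1 at chr17:34257689-34269419, H2-Aa at chr17:34282744-34287823 and H2-Eb1 at chr17:34305867-34316674. H2-Aa had 43.1, 33.1, 44.5, 33.2 and 32.7 CPM in A1 to A5, 44.9, 1082, 76.9, 48.6 and 6.17 CPM in O1 to O5, and 57.8, 66.6, 160, 71.6 and 64.7 CPM in P1 to P5. The Adult mice lay close together, the Old mice spanned a 175-fold range from O5 to O2, and all 5 PDX mice lay above all 5 Adult mice, with P3 the highest of them. H2-Ab1, its beta partner, had the same mice at both ends, with 39.3, 29.4, 42.1, 35.7 and 31.3 CPM in the Adult mice, 41.5, 952, 64.9, 46.8 and 6.02 CPM in the Old and 53.4, 73.1, 156, 70.0 and 69.8 CPM in the PDX mice. H2-Eb1 had 34.6, 24.9, 38.0, 26.6 and 24.5 CPM in the Adult mice, 38.4, 909, 64.6, 40.3 and 4.91 CPM in the Old and 48.6, 66.2, 140, 65.6 and 59.6 CPM in the PDX mice. For each of these 3 chains, O5 was at 16.5% to 16.9% of the Adult mean, and O2 was more than 6 times as high as the next highest mouse, P3.

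**Figure D1:**
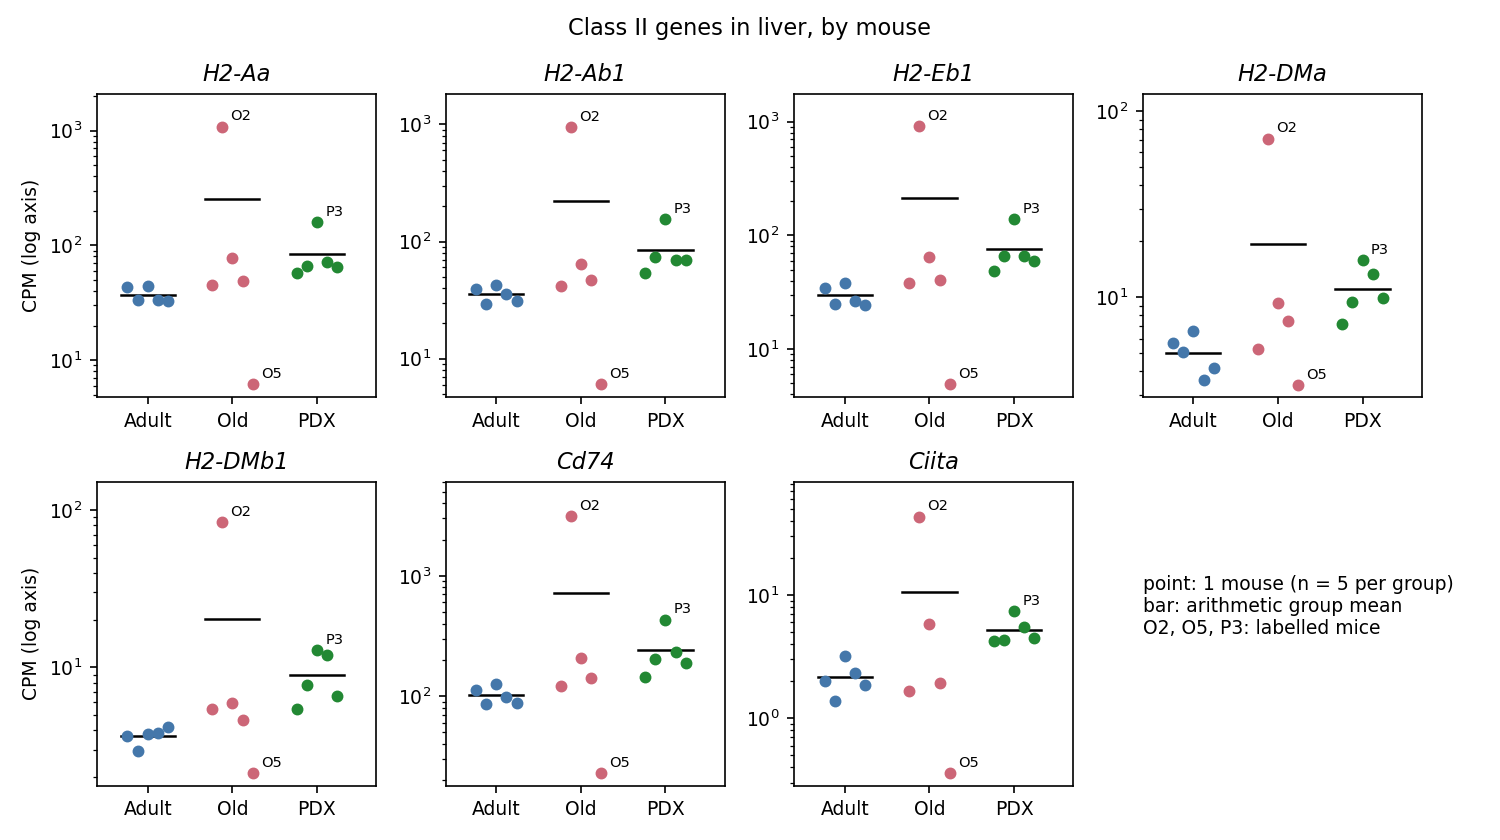
CPM of each class II gene in each mouse on log axes, with 1 point per mouse (n = 5 per group) and a bar at the arithmetic mean of the group. In each panel O2 is the highest and O5 the lowest of the 15 mice, and the 5 PDX points lie above the 5 Adult points.

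Cd74, the invariant chain, was the most abundant of the 7, with 112.9, 86.8, 127, 97.9 and 87.3 CPM in A1 to A5, 121, 3138, 208, 142 and 23.1 CPM in O1 to O5, and 143, 202, 433, 234 and 187 CPM in P1 to P5. It was at 3063% of the Adult mean in O2, the largest ratio of any member, and again all PDX mice were above all Adult mice. The peptide exchange genes were less abundant. H2-DMa (chr17:34119541-34139101) had 5.68, 5.07, 6.57, 3.59 and 4.19 CPM in the Adult mice, 5.27, 71.2, 9.39, 7.47 and 3.39 CPM in the Old and 7.22, 9.39, 15.9, 13.3 and 9.91 CPM in the PDX mice. Its partner H2-DMb1 (chr17:34153072-34160230) had 3.68, 2.96, 3.78, 3.81 and 4.19 CPM in the Adult mice, 5.44, 83.9, 5.96, 4.64 and 2.13 CPM in the Old and 5.44, 7.79, 12.8, 12.0 and 6.61 CPM in the PDX mice. The low value of O5 was much shallower for this pair, at 67.6% of the Adult mean for H2-DMa and 57.8% for H2-DMb1. For H2-DMa the 94 read pairs of O5 have an exact 95% Poisson interval of 2.74 to 4.15 CPM, which covers the 3.59 CPM of A4, so that the place of O5 below all Adult mice is within counting error for this gene. H2-DMb1 has a near-identical neighbour, H2-DMb2, and the annotated span of H2-DMa overlaps that of Brd2. Pairs that the counting could not place in a single gene would be missing, and whether there were any was not measured.

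Ciita (chr16:10480059-10528418), the coactivator, had 2.00, 1.37, 3.19, 2.34 and 1.87 CPM in A1 to A5, 1.66, 43.2, 5.77, 1.93 and 0.361 CPM in O1 to O5, and 4.22, 4.34, 7.41, 5.50 and 4.44 CPM in P1 to P5. O1 and O4 lay within the Adult range, O2 and O3 above it and O5 below it, and the PDX mice lay above it. The value of O5 rests on 10 read pairs, for which the exact 95% Poisson interval is 4.80 to 18.4 pairs, or 0.173 to 0.663 CPM, which covers counting error only. In these bulk samples, fewer cells of a type and less RNA per cell cannot be told apart.

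Per kilobase of annotated exon, the order in the Adult mice was Cd74 with 61.0 ± 10.4, H2-Eb1 with 15.3 ± 3.18, H2-Ab1 with 13.8 ± 2.07, H2-Aa with 9.83 ± 1.57, H2-DMb1 with 2.19 ± 0.267, H2-DMa with 1.46 ± 0.342 and Ciita with 0.226 ± 0.0709 CPM per kb (SD, n = 5). H2-Eb1 and H2-Ab1 overlapped in their ranges over mice, 12.6 to 19.6 and 11.5 to 16.4 CPM per kb, and so did H2-Ab1 and H2-Aa, 8.61 to 11.7 CPM per kb, and the H2-DM pair. Cd74, Ciita and the gap between the classical chains and the H2-DM genes were clear of their neighbours in every Adult mouse. Together the 7 genes took 0.0176% to 0.0260% of the counted pairs of the Adult mice, 0.834% in O2, 0.00480% in O5, 0.0228% to 0.0454% in the other Old mice and 0.0310% to 0.0997% in the PDX mice, the highest of these in P3.

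With age, the class II genes had higher group means, carried by O2, and none passed the test. The Old mean was 3.86-fold (H2-DMa) to 7.12-fold (H2-Eb1) the Adult mean, and the log2 fold changes of edgeR's quasi-likelihood test were 1.95 to 2.83, with standard errors of 0.67 to 0.96. Adjusted over all tested genes (Benjamini-Hochberg), p was 0.0694 for H2-DMb1, 0.0751 for Cd74, 0.0767 for H2-Eb1, 0.0789 for H2-DMa, 0.0818 for H2-Aa, 0.0870 for H2-Ab1 and 0.107 for Ciita. At the threshold of 0.05, 0 of 7 were called, beside 6.78% of all genes (4.71% higher in Old). At an unadjusted p under 0.05, 7 of 7 were higher, beside 17.9% of all genes that were higher (27.7% in either direction). By limma on the deposited variance-stabilized values 0 of 7 were called. The Wald test of DESeq2 gave an adjusted p for Ciita alone (0.0311), because its rule for count outliers withheld the p of the 6 other members, as it did for 241 (1.52%) of the 15808 genes. With that rule switched off, a setting added after the data were seen, DESeq2 called 7 of 7 higher in Old, with adjusted p of 0.00896 to 0.0309, beside 10.6% of all genes called higher. The groups overlapped for all 7 genes, as O5 lay below every Adult mouse. An exact two-sided permutation test of the mean log2 CPM, which gives O2 less weight than a mean of counts does and was added after the data were seen, had p of 0.222 (H2-DMa) to 0.683 (Ciita), not adjusted over genes.

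The age comparison turned on which of the 2 distinct mice was included. Without O5, 7 of 7 genes were called higher in Old by edgeR, with log2 fold changes of 2.22 to 3.14 and adjusted p of 0.0266 to 0.0369, beside 8.66% of all genes called higher in that fit. Without O1, 2 of 7 were called (H2-DMa and H2-DMb1, adjusted p of edgeR 0.0485 and 0.0475), and without O3 or O4 1 of 7, H2-DMb1 (adjusted p 0.0444 and 0.0461). Beside these, 7.64%, 8.55% and 7.44% of all genes were called higher without O1, O3 and O4. Without O2, 0 of 7 were called, beside 3.38% of all genes called higher, and the log2 fold changes were 0.17 to 0.36. Without both, 0 of 7 were called and the log2 fold changes were 0.53 to 0.70, with adjusted p of 0.168 to 0.386, beside 4.85% of all genes called higher. O3 alone of the 3 remaining Old mice was above all Adult mice for every member, at 162% to 268% of the Adult mean.

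In the PDX mice every class II gene was higher than in the Adult mice, mouse by mouse. The PDX mice differed from the Adult mice in both age and treatment, and this comparison cannot tell the 2 apart. For 7 of 7 genes the 5 PDX values lay above the 5 Adult values, which 10.5% of all tested genes did in this direction, and the same held for CPM without the scaling factor and for the deposited variance-stabilized values. The PDX mean was 2.22-fold (H2-DMa) to 2.56-fold (H2-Eb1) the Adult mean. In the fit of all 15 mice, the log2 fold changes were 1.15 to 1.35 and the adjusted p of edgeR 0.336 to 0.499, so that 0 of 7 were called, beside 2.66% of all genes (1.76% higher), and 0 of 7 had an unadjusted p under 0.05, which 20.6% of all genes had (11.2% higher). Limma called 0 of 7, and DESeq2 0 of 7 with its outlier rule, which again left Ciita as the only member with a p, and 0 of 7 without it. The exact permutation test of mean log2 CPM, added after the data were seen, gave p of 0.00794 for each gene, not adjusted. That is the smallest p that 5 against 5 mice allow, and it restates that the groups did not overlap.

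The edgeR fit of all 15 mice sets the spread of each gene from all groups, and O2 and O5 entered it. When only the 10 PDX and Adult mice were fitted, 7 of 7 genes were called higher in PDX, with log2 fold changes of 1.17 to 1.37 and adjusted p of 0.00193 to 0.00562, beside 16.1% of all genes called higher in that fit. When O2 and O5 were left out of the fit, 7 of 7 were called with adjusted p of 0.00134 to 0.0118, beside 14.4%. Without O2 alone, 2 of 7 were called, H2-DMa and H2-DMb1, beside 7.76% of all genes called higher. Without O5 alone, 0 of 7 were called (adjusted p of edgeR 0.202 to 0.302), beside 5.35%. P3, at 317% to 471% of the Adult mean, was the highest PDX mouse for each member. Without O2, O5 and P3 the log2 fold changes were 0.81 to 1.11 and 7 of 7 were still called, beside 11.7% of all genes called higher.

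Between the PDX and Old groups none of the class II genes passed the test, and the direction itself rested on O2. In edgeR the log2 fold changes of PDX against Old were -1.60 (Cd74) to -0.80 (H2-DMa), with adjusted p of 0.793 to 0.805. At the threshold of 0.25 that was used for this comparison, 0 of 7 members and 0% of all genes were called, 834 genes (5.28%) had an unadjusted p under 0.05, and none of these were members. Of all genes, DESeq2 called 1 and limma 0, and neither called a member. Without O2 the log2 fold changes were positive, 0.80 to 1.09, and without O2 and O5 they were 0.58 to 0.75, again with 0 of 7 called. The difference of mean log2 CPM over all 10 mice was likewise positive, 0.13 to 0.65, with exact permutation p of 0.595 to 0.913. All 3 comparisons share mice, so their values are given side by side and not as independent results.

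**Figure D2:**
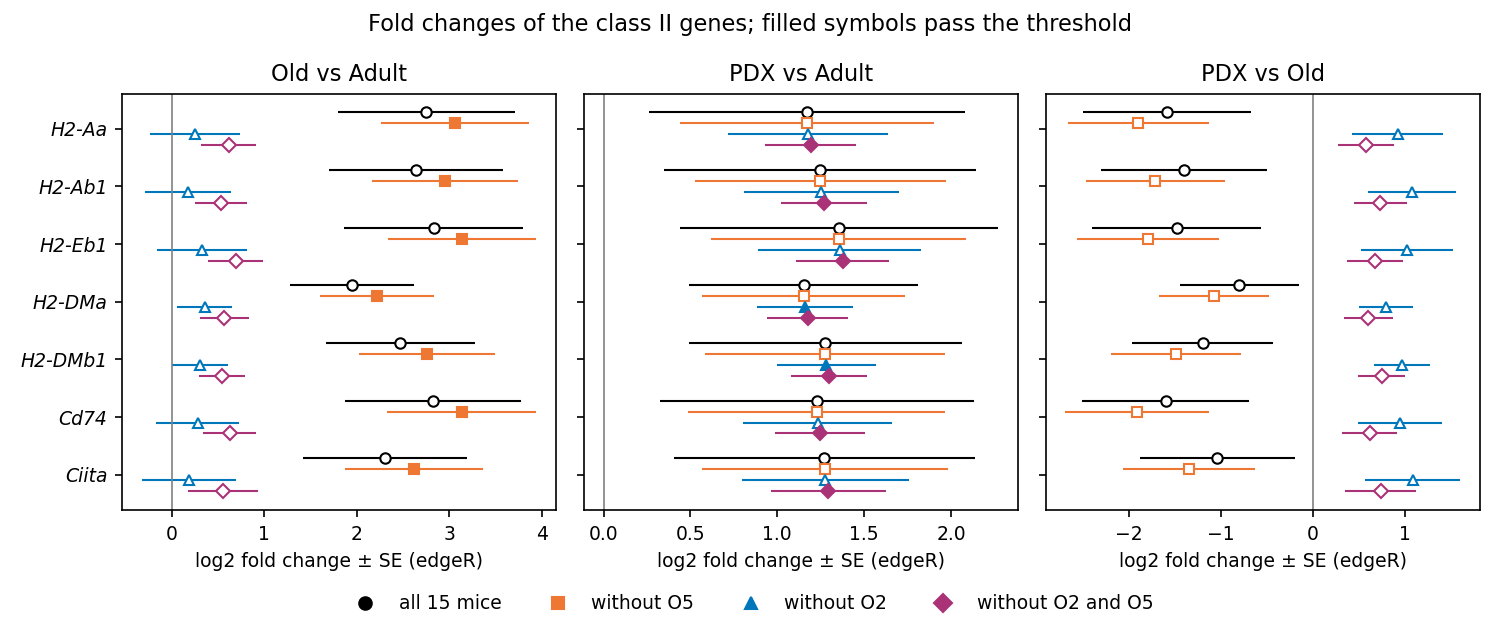
Log2 fold changes with standard errors from edgeR for each class II gene (rows) in the 3 comparisons (panels), fitted to all 15 mice, without O5, without O2 and without both, with filled symbols where the adjusted p passed the threshold. Without O2 the Old against Adult values fall to 0.17 to 0.36 and those of PDX against Old turn positive, and the PDX against Adult values hardly move while their standard errors shrink.

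The 7 genes moved together but not in fixed proportions, since the range between O5 and O2 was narrower for the H2-DM pair. O5 was at 16.5% (H2-Eb1) to 67.6% (H2-DMa) of the Adult mean and O2 at 1419.8% (H2-DMa) to 3063% (Cd74), and no ratio of an H2-DM gene to a classical chain was tested. Cd74 made up 44.7% to 50.1% of the class II read pairs in every mouse, 50.0% in O2 and 50.1% in O5. Among 15 exact two-sided permutation tests of 5 log2 ratios between members, none passed the Benjamini-Hochberg adjustment (smallest adjusted p 0.268). The smallest unadjusted p was that of Cd74 to H2-Ab1, with a log2 value of 1.69 ± 0.146 in the Old and 1.52 ± 0.0570 in the Adult mice (SD, n = 5, exact permutation p = 0.0317, adjusted p = 0.268). The ratio of H2-DMa to H2-DMb1 was, on the log2 scale, 0.42 ± 0.424 for Adult, 0.34 ± 0.444 for Old and 0.34 ± 0.161 for PDX mice. Pearson's r between the log2 CPM of 2 members, each taken as the deviation from its group mean, was 0.930 to 0.999 over 15 mice (median of 21 pairs 0.964). Without O2 and O5 it was 0.527 to 0.986, with a median of 0.763. These correlations share libraries and the distinct mice, and are given as a description.

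The other class II chains were less abundant than the classical chains and did not rank the mice in the same way. H2-Ea, the alpha partner of H2-Eb1, whose promoter is deleted in C57BL/6 mice, was at 0 counts in every mouse. H2-Ob, which with H2-Oa forms the H2-DO inhibitor of H2-DM, had 1.66, 1.37, 2.33, 2.67 and 2.24 CPM in the Adult mice, 3.06, 17.7, 17.3, 1.63 and 0.577 CPM in the Old and 8.52, 4.50, 8.58, 3.89 and 4.61 CPM in the PDX mice. O3 was thus about level with O2 and P1 level with P3 for H2-Ob, which was not so for any of the 7 members. The sum of H2-Eb2, H2-DMb2, H2-Oa and H2-Ob was 7.83 times the Adult mean in O2 and 8.45 times in O3, where the sum of the 7 members was 29.1 and 2.02 times the Adult mean. In the edgeR fit of all mice 0 of these 4 tested chains passed in any comparison, with log2 fold changes of 1.78 to 2.09 in Old and 1.55 to 2.63 in PDX against Adult. All 4 had PDX values above all Adult values, as did 10.5% of all genes, and all 4 were called higher in PDX when only those 10 mice were fitted, beside 16.1% of all genes. All 4 were higher at an unadjusted p of edgeR under 0.05 in Old and in PDX against Adult, beside 17.9% and 11.2% of all genes. DESeq2 called 3 in Old and 2 in PDX, beside 9.66% and 4.57% of all genes called higher by it, and limma called 0.

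The class II region of chromosome 17 also holds genes of class I presentation and the unrelated Brd2, which allows neighbours to be set beside the members. Tap1 and Tap2, the peptide transporter, and Psmb8 and Psmb9, subunits of the immunoproteasome, had log2 fold changes of 0.25 to 0.65 in Old and 0.55 to 0.72 in PDX against Adult. None was called in the edgeR fit of all mice, and all were called higher in PDX when only the PDX and Adult mice were fitted, beside 16.1% of all genes. In O2 they were 2.06 to 4.37 times the Adult mean, where the 5 members of the region were 14.2 to 30.6 times the Adult mean. In O5 the immunoproteasome genes were low as well, with Psmb9 at 0.119 and Psmb8 at 0.195 times the Adult mean, and Tap1 was at 0.509 times. Brd2, a bromodomain gene, was at 1.02 times the Adult mean in O2 and 1.73 times in O5.

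**Figure D3:**
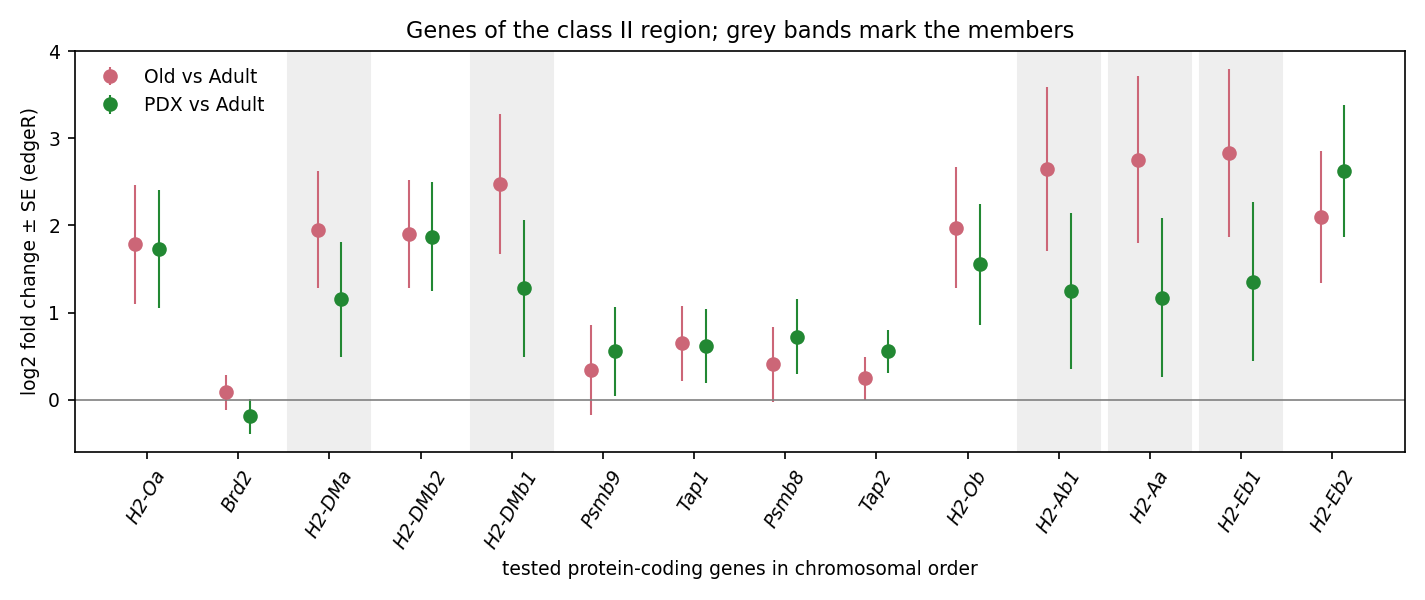
Log2 fold changes with standard errors from edgeR for the 14 tested protein-coding genes of the class II region, in chromosomal order and not to scale, for Old against Adult and PDX against Adult. The class II members (grey bands) and the other class II chains lie above 1, and Brd2, Psmb9, Tap1, Psmb8 and Tap2 lie below 1.

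Of the 7 factors that bind class II promoters, only Nfyb, a subunit of the Y box factor NF-Y, passed in Old against Adult by edgeR. It was lower, beside 2.07% of all genes called lower. It had 40.9, 42.7, 40.2, 37.4 and 45.8 CPM in the Adult and 32.7, 27.5, 34.3, 29.9 and 20.3 CPM in the Old mice, with all Old below all Adult mice, as for 4.48% of all genes (log2 fold change -0.51 ± 0.14 SE, adjusted p of edgeR 0.0468). Without O2 its adjusted p of edgeR was 0.0937, while every other Old mouse still lay below all Adult mice. Of the 7 factors, DESeq2 called 1 and limma 0 in Old against Adult, beside 2605 of 19262 and 651 of 15808 genes in either direction. In PDX against Adult 0 of 7 passed by DESeq2, limma or the edgeR fit of all mice. In that edgeR fit 1 had an unadjusted p under 0.05, which was Nfyb, beside 20.6% of all genes. With only the PDX and Adult mice fitted, Nfya was called higher and Nfyb lower in PDX, beside 4529 of 15297 genes in either direction. The same calls were made without O2 and O5, beside 4004 of 16275 genes. The median log2 fold change of the list was -0.02 in Old and -0.05 in PDX, beside 0.07 and -0.01 over all genes. Rfx5, the X box factor, ranged from 13.0 to 18.0 CPM in the Adult mice and was 18.7 CPM in O2 and 7.03 CPM in O5.

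Interferon gamma is the main inducer of Ciita outside B cells and dendritic cells, and it acts through the kinases Jak1 and Jak2. Ifng itself was too low to be tested, with 30 read pairs in O2, 1 in A3, 2 each in A4, P3 and P5, and 0 in the other mice. In the edgeR fit of all mice 0 of the 7 tested genes of this list passed, and DESeq2 and limma called 0. At an unadjusted p of edgeR under 0.05 there were 2 in Old and 1 in PDX against Adult, beside 27.7% and 20.6% of all genes. With only the PDX and Adult mice fitted, 4 of 7 were called higher in PDX, beside 16.1% of all genes, among them the receptor chains Ifngr1 and Ifngr2 and the transcription factor Irf1.

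Endosomal processing was the pathway list with the most genes past the threshold in the edgeR fit of all mice. Limma called 1 of its 6 genes in Old against Adult, beside 651 of 15808 genes in either direction. DESeq2 called 4, beside 9.66% of all genes called higher by DESeq2. By edgeR 3 of the 6 rose, beside 4.71% of all genes called higher. The 3 were Ctss, the protease cathepsin S that trims the invariant chain, Lgmn, the endopeptidase legumain, and Ifi30, the reductase GILT. Ctss had 57.3, 40.8, 64.1, 44.7 and 49.0 CPM in the Adult mice, 73.6, 546, 95.1, 65.1 and 113 CPM in the Old and 104, 177, 188, 196 and 90.9 CPM in the PDX mice (Old against Adult 1.81 ± 0.51 SE on the log2 scale, adjusted p of edgeR 0.0480). Unlike every class II member, Ctss was above all Adult mice in O5 as well. Ifi30 had a log2 fold change of 1.97 ± 0.52 (adjusted p of edgeR 0.0386) and Lgmn of 1.03 ± 0.26 (adjusted p 0.0310), and for both no Old mouse overlapped the Adult mice, as for 3.65% of all genes in this direction. In PDX against Adult only Lgmn passed by edgeR (1.05 ± 0.26, adjusted p 0.0407), beside 1.76% of all genes called higher. DESeq2 called 3 of 6, beside 4.57% of all genes called higher by it, and limma called 1, beside 402 of 15808 genes in either direction. With only the PDX and Adult mice fitted by edgeR, 4 of 6 were called higher in PDX, beside 16.1% of all genes. Without O2, Ifi30 was the gene of the list that still passed in Old (adjusted p of edgeR 0.0419), and Ctss, Lgmn and Ifi30 all passed in PDX. Beside these, 3.38% and 7.76% of all genes were called higher in those fits.

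Cathepsin B (Ctsb) had the highest CPM of that list in the 14 mice other than O5. Cathepsin L (Ctsl) did the opposite of the class II genes in O5, with 6677 CPM against 378 to 979 CPM in the other 14 mice. It did not pass in either comparison. Among the genes of surface turnover and costimulation, Cd80, a ligand of CD28, rose in Old against Adult (log2 fold change 2.15 ± 0.58, adjusted p of edgeR 0.0413), with 0.552, 3.98, 2.41, 0.557 and 1.12 CPM in the Old and 0.176 to 0.787 CPM in the Adult mice. That was 1 of 4 genes of the list, beside 4.71% of all genes called higher. Without O2 the adjusted p of Cd80 by edgeR was 0.101, and limma called 0 of 4 in Old and in PDX against Adult. All 4 had an unadjusted p of edgeR under 0.05 in Old, beside 27.7% of all genes. DESeq2 called 3 in Old and 1 in PDX, beside 9.66% and 4.57% of all genes called higher by it. With only the PDX and Adult mice fitted by edgeR, all 4 were called higher in PDX, beside 16.1% of all genes. Cd86, the other CD28 ligand, had 28.1 CPM in O2, 1.80 CPM in O5 and 3.33 to 5.43 CPM in the Adult mice, and it did not pass in the edgeR fit of all mice.

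Class I presentation had no gene past the threshold in the fit of all mice. By edgeR 0 of its 11 genes passed in any comparison of all mice, and DESeq2 and limma called 0. At an unadjusted p of edgeR under 0.05 there were 1 in Old and 2 in PDX against Adult, beside 27.7% and 20.6% of all genes. The median log2 fold change of the list was 0.25 in Old and 0.47 in PDX against Adult. H2-K1, a heavy chain and the most abundant gene of the list, had 1758 to 1993 CPM in the Adult mice, 1937 CPM in O2 and 1279.8 CPM in O5. Nlrc5, the class I counterpart of Ciita, had 61.4 CPM in O2 and 28.1 CPM in O5, above the 12.9 to 23.0 CPM of the Adult mice in both. With only the PDX and Adult mice fitted, 7 of 11 were called higher in PDX, beside 16.1% of all genes, among them Tap1, Tap2, Psmb8 and Psmb9.

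Markers of immune cells, both those that carry class II molecules and the T cells that read them, moved with the class II genes in part. The sum of 8 T cell markers was 25.1 times the Adult mean in O2, beside 29.1 times for the class II genes, and 0.547 times in O5 against 0.213 times. Most of that sum in O2 was Cd4, and the median over the single T cell markers was 10.9 times the Adult mean, beside 26.8 times for the class II genes, 11.4 times for the monocyte and 10.2 times for the B cell markers. Cd4 had 116 CPM in O2 and 0.334 to 3.28 CPM in the other mice. The 9 markers of conventional dendritic cells summed to 10.0 times the Adult mean in O2 and 0.911 times in O5, with 5.05 times in O2 and 0.575 times in O5 as the medians over single markers, and they did not move alike. Xcr1, a receptor of cross-presenting dendritic cells, had 9.95 CPM in O2, 0 counts in O5 and 0.141 to 0.366 CPM in the Adult mice. Zbtb46, a transcription factor of dendritic cells and the marker with the highest CPM of the list in each Adult mouse, had 6.76 CPM in O2, 6.35 CPM in O5 and 5.56 to 7.20 CPM in the Adult mice. The 8 Kupffer cell markers were at 5.13 times in O2 and 0.508 times in O5, with 5.48 times in O2 and 0.320 times in O5 as the medians over single markers. By edgeR 0 of the 8 T cell and 0 of the 8 Kupffer cell markers passed in Old against Adult. At an unadjusted p of edgeR under 0.05 there were 5 and 1, beside 27.7% of all genes. DESeq2, which withheld the p of 5 and 1, and limma called 0. Of the 9 dendritic cell markers 1, Itgax, rose in Old by edgeR, beside 4.71% of all genes called higher. DESeq2, which withheld the p of 3, called 1, or 4 with its outlier rule switched off, and limma called 0. Beside these, DESeq2 called 2605 of 19262 genes in either direction, or 2833 of 19660 with the rule switched off. Clec4f, which is specific to Kupffer cells, had 1061 CPM in O2, 51.0 CPM in O5 and 164 to 230 CPM in the Adult mice. Marco, a scavenger receptor of the same list, had 38.5 CPM in O2, 91.3 CPM in O5 and 4.93 to 31.9 CPM in the Adult mice, and C6 had 43.1, 24.6 and 20.4 to 26.2 CPM.

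B cell markers ranked the mice differently. Their sum over 10 genes was 9.42 times the Adult mean in O2, 7.46 times in O3 and 5.09 times in P1, where the class II genes were at 29.1, 2.02 and 1.48 times. O3 and P1 were likewise high for H2-Ob, and none of the 10 markers was at 0 in every mouse. In Old against Adult 4 of 10 were called higher (Ms4a1, Cd79a, Cd79b and Blk) and Cr2 lower by edgeR, beside 4.71% and 2.07% of all genes, while DESeq2 called 8 and limma 1 of 10 in either direction. Of all genes, DESeq2 called 2605 of 19262 and limma 651 of 15808 in either direction. In PDX against Adult edgeR and limma called 0 of 10, with 1.77 as the median log2 fold change. At an unadjusted p of edgeR under 0.05 there were 7, beside 20.6% of all genes. DESeq2 called 5, beside 4.57% of all genes called higher by it. Cd79a, a signalling chain of the B cell receptor, was above all Adult mice in every Old mouse, O5 included, where it had 2.20 CPM against 1.13 to 1.94 CPM.

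Of the other lists, monocyte and recruited macrophage markers were at 9.04 times the Adult mean in O2, 0.964 times in O5 and 1.66 to 4.23 times in the PDX mice. Of these 9, Itgam, Chil3 and S100a4 rose in Old and Chil3 in PDX by edgeR, while limma called 2 and 1 and DESeq2 7 and 6, beside the 9.66% and 4.57% of all genes that DESeq2 called higher. Lipid-associated macrophage markers were above the Adult mean in O5 as well, at 2.47 times, and 4 of 6 rose in Old (Gpnmb, Trem2, Cd9 and Lpl) and 3 of 6 in PDX (Gpnmb, Spp1 and Fabp5) by edgeR, beside 4.71% and 1.76% of all genes called higher, while limma called 2 and 2 and DESeq2 3 and 4. Neutrophil markers were at 17.7 times in O2 and 4.72 times in O5, with 8.54 and 7.20 times as the medians over single markers. S100a8, S100a9 and Cxcr2 were higher in Old by edgeR, and of the 5 tested limma called 1 in Old and 0 in PDX and DESeq2 5 and 4. NK cell markers summed to 10.6 times the Adult mean in O2 and 0.0902 times in O5, and 0 of the 3 tested passed by edgeR (1 in Old at an unadjusted p under 0.05 and 1 by DESeq2). Cholangiocyte markers were at 1.07 and 4.96 times, with 0 of 4 past the threshold by edgeR (4 in Old at an unadjusted p under 0.05, 2 by DESeq2). The sum of the hepatocyte markers, mostly Alb, was at 0.562 times in O2 and 0.365 times in O5. The medians over single hepatocyte markers had the other order, 0.335 times in O2 and 0.683 times in O5. Cyp2e1 and Ass1 were lower in Old and Cyp2e1 in PDX by edgeR. Beside these, 2.07% of all genes were called lower in Old and 0.898% in PDX against Adult. At an unadjusted p of edgeR under 0.05 there were 27.7% of all genes in Old against Adult. In either direction, DESeq2 called 2605 of 19262 genes in Old and 1388 of 18726 in PDX against Adult. Limma called 651 and 402 of 15808.

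Sinusoidal endothelial markers were at 0.820 times the Adult mean in O2 and 0.411 times in O5, and 0 of 7 passed by edgeR, DESeq2 or limma. By edgeR 3 had an unadjusted p under 0.05 in Old, beside 27.7% of all genes. Of 6 stellate cell markers 1, Des, rose in Old by edgeR, beside 4.71% of all genes called higher (2 called by DESeq2 and 0 by limma). Plasma cell markers were led by Sdc1, which hepatocytes also express, and of the 4 tested Mzb1 and Derl3 rose in Old and Jchain and Derl3 in PDX by edgeR, beside the 4.71% and 1.76% of all genes called higher, while limma called 2 and 1 and DESeq2 3 and 3. Beside these and the stellate cell counts, DESeq2 called 2605 of 19262 genes in Old and 1388 of 18726 in PDX, and limma 651 and 402 of 15808. Of the 4 plasmacytoid dendritic cell markers none passed the filter on low counts. In each PDX mouse the sums of the T cell, dendritic cell, Kupffer cell, monocyte, lipid-associated macrophage, neutrophil and B cell lists were above those of every Adult mouse. The NK cell sum was not (1.03 times the Adult mean in P1 and 1.37 times in A3). How often sums over other genes have this pattern was not computed. By mean CPM over all 15 mice the leading markers were Cd4 of the T cell and Itgax of the dendritic cell list, each with its highest value in O2, and Cd5l (Kupffer cell), Lyz2 (monocyte), Spp1 (lipid-associated macrophage), S100a9 (neutrophil), Nkg7 (NK cell), Sox9 (cholangiocyte), Clec4g (sinusoidal endothelial cell) and Dcn (stellate cell). The leading marker differed by group. In the Adult mice the means of Lck (2.10 CPM), Clec4f (198 CPM) and Csf1r (93.4 CPM) were above those of Cd4 (0.857 CPM), Cd5l (183 CPM) and Lyz2 (78.0 CPM). In the PDX mice Fabp5 (74.6 CPM) was above Spp1 (63.2 CPM). The part of these cell types in the class II values was not tested.

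**Figure D4:**
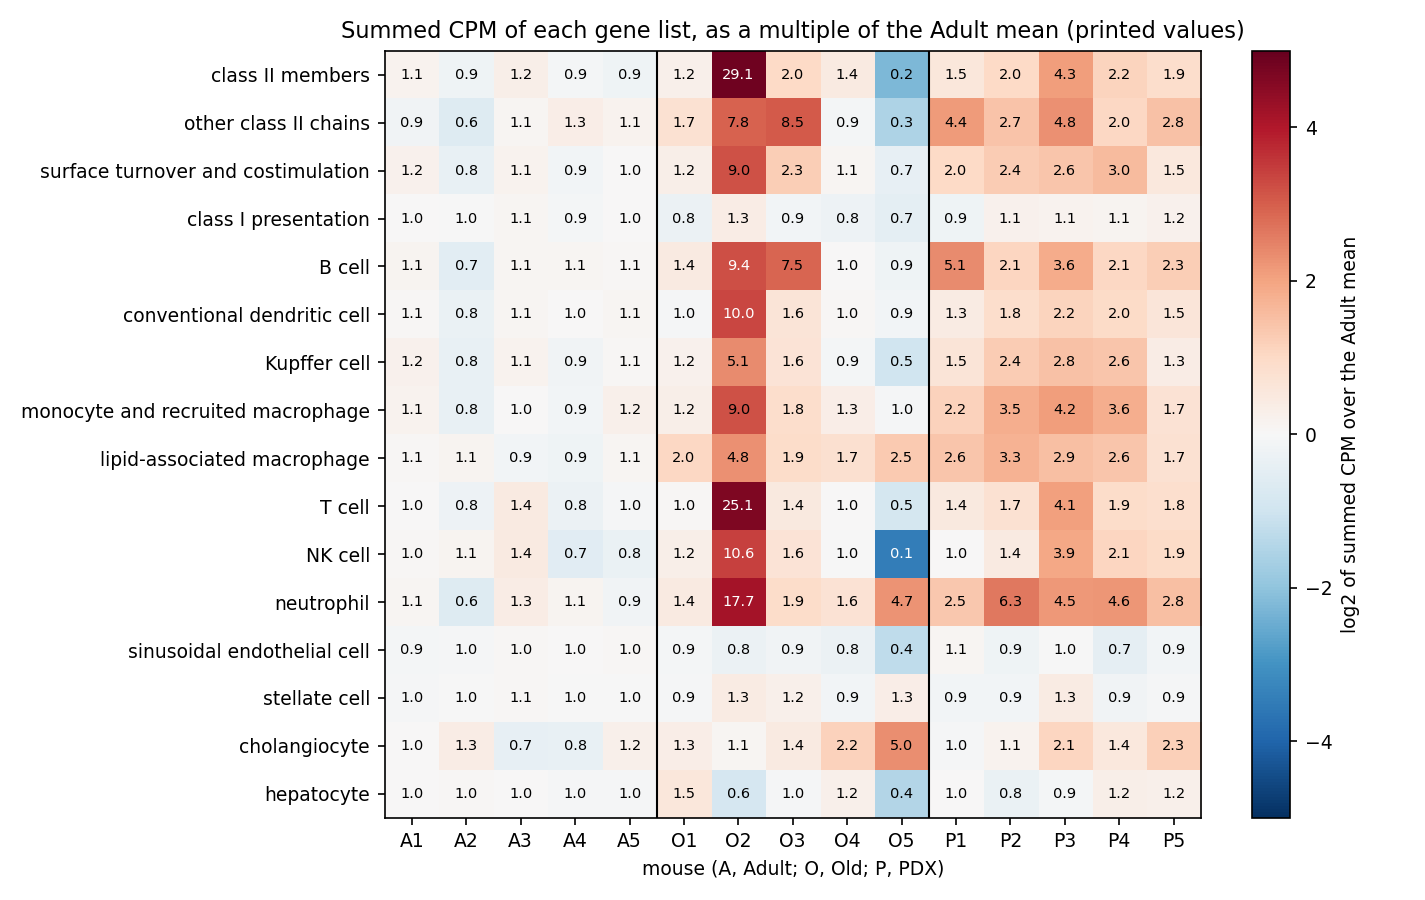
Summed CPM of the genes of each list (rows) in each mouse (columns) as a multiple of the Adult mean, printed in each cell and coloured on a log2 scale. The class II genes and the T cell markers have the highest sums in O2, 29.1 and 25.1, the second of which is mostly Cd4, and O3 and P1 are raised for the other class II chains and the B cell markers more than for the class II genes.

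Outside the family, the genes whose deviations from the group mean were most like those of the class II genes over the 15 mice were Cysltr1 (r = 0.992), a leukotriene receptor, Samhd1 (0.989), a nucleotide phosphohydrolase, Gbp2 (0.986), an interferon-induced GTPase, Maf (0.986), a transcription factor, Fyn (0.985), a Src family kinase, Tmsb4x (0.985), an actin-binding peptide, Myo1f (0.984), a myosin of leukocytes, Ptpn6 (0.979), a phosphatase of blood cells, Rnase6 (0.978), a ribonuclease, and Lyn (0.978), a Src family kinase. The score was the mean over the 7 members of their standardized log2 CPM. All 10 were high in O2 and low in O5, and none was called in any comparison of all mice. Without O2 and O5, Gbp2 ranked first of all genes (r = 0.963), and Cysltr1 fell to rank 31 (r = 0.887). Tmsb4x was then at rank 21, Lyn 92, Samhd1 95, Fyn 128, Maf 208, Ptpn6 224, Myo1f 266 and Rnase6 596. Gbp2 had a mean of 12.2 ± 2.52 CPM in the Adult mice, 32.6 ± 46.9 CPM in the Old and 27.4 ± 9.69 CPM in the PDX mice (SD, n = 5), with 116 CPM in O2, 5.59 CPM in O5 and 43.9 CPM in P3. These mice share 1 set of libraries, and the order of likeness is a description.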

How the data were processed

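The liver of 15 female mice was sequenced, and the labels assign 5 mice to Adult, 5 to Old and 5 to PDX. The authors aligned the reads to mm10 with STAR 2.6.0c and deposited counts per Ensembl gene, made with featureCounts of Subread 1.6.2 from uniquely aligned proper read pairs of non-mitochondrial genes on the same strand. They also deposited values on a log2 scale, for which DESeq2 1.23.10 stabilized the variance of these counts. Tool versions are those in the submitters' processing notes, which also name FastQC 0.11.7.

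Here, the counts were filtered with filterByExpr (minimum count 10, minimum total 15), scaled by TMM and fitted over all 15 mice with the quasi-likelihood test of edgeR 4.0.16 in R 4.3.3, with Benjamini-Hochberg adjustment over 15808 genes. The threshold was 0.05, and 0.25 for PDX against Old, the cut-off that the study's text gives for it. Log2 CPM used a prior count of 2. DESeq2 1.42.0 on the counts, limma 3.58.1 on the deposited log2 values, other scaling factors, no filter, 2 groups alone, a replicate block and mice left out in turn were tried as alternatives. Ratios between members were compared by exact permutation tests in Python 3.11.15 with SciPy 1.17.1. The fits were tested on simulated data, and the outcome is not reported here. Symbols were given to 55104 of 55450 gene IDs from the GENCODE annotation of GRCm38, and lengths are unions of its exons. Promoter windows are those of RefSeq (GRCm38.p6). All columns of the tables matched a mouse by name, and 0 columns were left without a sample.

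The members and the gene lists were chosen with earlier results of these data known. The rule for named genes took the members, the pathway genes past the threshold, the gene of each list with the highest mean CPM over all mice and its largest rise and fall, and the 10 genes most like the members. H2-Ob, Rfx5, Cd86, Nlrc5, Clec4f, Xcr1, Zbtb46, Marco, C6, Ctsb, Cd79a and the genes of the class II region were described beyond that rule, and were chosen after their values were seen. Some genes of the lists are not reported here by name. Each library came from 1 mouse, so p-values measure the spread between mice, and intervals on counts cover counting error only. No library preparation batch was used, since none was given per mouse in the labels.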

Additional observations from a re-analysis of the deposited data

Results flagged for a closer look

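On the scale of log2 CPM, 21 groups of 5 mice (7 class II genes in 3 groups) were examined for a mouse far from the others, by the gap to the nearest mouse as a share of the whole range of the group. The value was above the 95% critical value of Dixon's test for 5 samples in 2 groups, and chance flags about 1 in 20 groups. For H2-Aa in the PDX mice, P3 lay above the others with a gap of 0.790 of the range. For H2-DMb1 in the Old mice, O2 lay above the others with a gap of 0.723 of the range. For the 6 other class II genes in the Old mice the gap was within that limit.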

How the results depend on the processing

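The class II calls depended on which mice entered the fit and on the tool, and the direction of PDX against Old depended on O2. In Old against Adult, edgeR called 1072 genes and 0 members, DESeq2 2605 genes and 1 member, and DESeq2 without its rule on count outliers 2833 genes and 7 members. limma called 651 genes, edgeR without the low-count filter 665 and edgeR on the 2 groups alone 105, with 0 members in each. In PDX against Adult, edgeR called 420 genes and 0 members, DESeq2 1388 genes and, without its rule on count outliers, 1415. The 2 groups alone gave 4529 genes and 7 members, the fit without O2 and O5 gave 4004 and 7, and that without O2, O5 and P3 gave 3270 and 7. In PDX against Old, edgeR called 0 genes, DESeq2 1 and, without its rule on count outliers, 3. DESeq2 with the withholding of p switched off, the fit without O2, O5 and P3 and the permutation test per gene were chosen after seeing the data.

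With each mouse left out in turn, genes called in Old against Adult numbered 156 to 2178 and members 0 to 7, genes in PDX against Adult 166 to 1766 and members 0 to 2, and in PDX against Old both 0. Leaving out any Adult mouse lowered the Old against Adult count to 156 to 243 genes. The log2 fold change of PDX against Old then ranged from -1.95 to 0.92 for H2-Aa, -1.74 to 1.08 for H2-Ab1, -1.82 to 1.03 for H2-Eb1, -1.07 to 0.80 for H2-DMa, -1.49 to 0.97 for H2-DMb1, -1.92 to 0.95 for Cd74 and -1.34 to 1.09 for Ciita, and it was positive without O2 and negative without any other single mouse.

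The same differences were positive under other settings too. In the order H2-Aa, H2-Ab1, H2-Eb1, H2-DMa, H2-DMb1, Cd74 and Ciita, they were 0.24, 0.37, 0.36, 0.087, 0.066, 0.20 and 0.40 by limma, 0.58, 0.74, 0.68, 0.60, 0.75, 0.62 and 0.74 without O2 and O5, 0.20, 0.39, 0.33, 0.44, 0.58, 0.29 and 0.57 without O2, O5 and P3, and 0.27, 0.41, 0.39, 0.13, 0.13, 0.22 and 0.65 as differences of mean log2 CPM. The cause was not tested, and none of these passed a threshold.

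Mice with the same number in different groups did not deviate together on average (mean r of -0.168 for Old and Adult, 0.031 for PDX and Adult and 0.092 for PDX and Old), and the main fit used no pairing. The paper states that the animals were studied in batches. These r cannot show whether any of the mice shared a batch. With the replicate number as a block, 237 genes were called in Old against Adult, 316 in PDX against Adult and 0 in PDX against Old, with 0 members in each, and PDX against Old became 0.025 for H2-Aa, 0.15 for H2-Ab1, 0.13 for H2-Eb1, 0.045 for H2-DMa, 0.029 for Cd74 and 0.33 for Ciita on the log2 scale. For H2-DMb1 the sign did not turn under this block. For the ratios between members the smallest p such a block allows is 0.0625.

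Of the ratios between members, that of H2-DMa to H2-DMb1 had no stable sign. With each mouse left out it ranged from -0.200 to 0.0685 in Old against Adult, -0.199 to 0.0179 in PDX against Adult and -0.143 to 0.0857 in PDX against Old. Without O2 and O5 it was 0.0116 in Old against Adult and -0.0857 in PDX against Old, and with a prior count of 0.5 it was -0.00103 in PDX against Old. Cd74 to H2-Ab1 ranged from -0.0763 to 0.00373 in PDX against Adult and H2-Eb1 to H2-Ab1 from -0.0517 to 0.0197 in PDX against Old. Without O2 and O5, r of the 10 genes most like the members was 0.694 (Rnase6) to 0.963 (Gbp2).

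Depth limited Ciita most, with 10 read pairs in O5. The group mean of Old was set by O2, and bulk tissue does not separate cell number from expression per cell.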
